A study of Mus musculus with 18 samples.

Results

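The genes described here encode the coats of the vesicles that carry proteins between the endoplasmic reticulum (ER) and the Golgi apparatus, together with their cargo receptors and docking proteins. They were taken by symbol from an RNA-Seq count table of 24047 genes, and all 44 of them were found. By role they fell into the COPI coat (8 genes), COPI recruitment and uncoating (3), the COPII coat and its start (13), cargo receptors and retrieval (15), and tethers and SNAREs (5). Crypt epithelial cells had been isolated with EDTA from the colon of C57BL/6 mice, as intact crypts, in 6 groups of 3 libraries. WT mice and mice labelled Ern2-/-, a constitutive knockout line of the ER stress sensor ERN2 (IRE1β) that was obtained from another laboratory, were each studied in 3 microbial states. GF mice were germ free, COLONIZED mice had been germ free until a gavage of WT cecal contents 14 days earlier, and CONV mice were raised conventionally. Ages and sexes were not given in the sources used here, and the labels do not say how the animals of a group were related, so the p-values below measure the spread between these libraries.

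A secreted protein leaves the ER in COPII vesicles. PREB, the exchange factor also known as SEC12, loads the small GTPase SAR1 with GTP, SAR1 recruits the inner coat of SEC23 and SEC24, and SEC13 with SEC31 forms the outer cage. SEC24 and receptors such as LMAN1, SURF4 and the TMED proteins select the cargo. COPI vesicles, built from the coatomer complex under the control of ARF1, return escaped ER proteins, which the KDEL receptors recognize by their C-terminal signal. Goblet cells, the mucus-secreting cells of the crypt, send large amounts of the mucin MUC2 and its partners along this route. Coatomer contains a ζ subunit that is encoded by either of a pair of paralogs, Copz1 or Copz2.

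Library totals ran from 5865619 to 23154481 counts, and values below are counts divided by the DESeq2 size factors of all 18 libraries (normalized counts) unless stated otherwise. The lowest totals were those of CONV-Ern2-/- replicates 3 (5865619) and 2 (7084267) and CONV-WT replicate 3 (8198204). All other libraries had at least 13783712. The crypt label was borne out by the marker genes, since all 12 goblet and all 8 colonocyte markers had a mean of at least 10 normalized counts in each group, and Muc2 reached 223342. Summed markers of other cells were 0 to 11.9 for pancreatic acinar (5 genes), 237 to 612 for mesenchymal (14) and 83.0 to 364 for immune and plasma cells (9). Ern2 itself was counted in every library, at 1909 to 3100 in WT and at 386 to 3336 in the libraries labelled Ern2-/-, so genotype differences refer to the labels. CONV-WT replicate 3 stood apart. Its summed goblet markers were 99396, against 560207 and 636592 in the other CONV-WT libraries, and its summed colonocyte markers were 323541 against 71955 and 98817. GF-Ern2-/- replicate 2 also stood apart, with a colonocyte sum of 505438 against 94903 and 118666. A Y-linked expression pattern was found in 0 of 3 libraries of GF-WT and 3 of 3 of CONV-Ern2-/-, in 1 of CONV-WT and in 2 of each other group, so sex was not balanced. A fit with sex as a covariate therefore rests on few libraries wherever 1 group had none or all with the pattern, and is weak there as a check. In these bulk samples fewer cells of a type and less RNA per cell cannot be told apart.

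Each of the 44 genes was detected in each library, with at least 23 raw counts, and all 44 passed the low-count filtering of every comparison. Expressed per kilobase of exon and averaged over the 18 libraries, the level ran from 72.7 normalized counts per kb for Copz2 to 3401 for Arf1, the GTPase that starts COPI coat assembly. Within the COPI coat, the other extreme was Copz1 with 907 per kb. The KDEL receptor Kdelr1 (2029 per kb) had the highest level among the cargo receptors and Ergic2 (102 per kb) the lowest. Copz2 was thus the least abundant gene of the set on the per-kb scale, and it also had the widest range, with 11.5 times more normalized counts in its highest than in its lowest library. Kdelr3 followed with a ratio of 7.42, whereas the COPII adaptor Sec24c varied least, with a ratio of 1.33. Together the 44 genes took 0.543% to 0.874% of a library's counts. Their mean share was 0.663% ± 0.0335 in GF-WT (SD, n = 3), 0.785% ± 0.0215 in COLONIZED-WT and 0.750% ± 0.181 in CONV-WT. Among libraries labelled Ern2-/- it was 0.677% ± 0.0363 in GF, 0.798% ± 0.0529 in COLONIZED and 0.590% ± 0.0495 in CONV libraries.

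The first question was how the vesicle genes responded to microbes in WT mice. In COLONIZED-WT, 15 of the 44 genes differed from GF-WT at a DESeq2 adjusted p under 0.01, the threshold for every call below, and 13 of them were higher. Across all genes tested 17.9% were called, with 9.13% called higher and 8.75% lower. The COLONIZED mice had also been gavaged and kept in cages outside the germ-free isolator. These steps cannot be told apart from the microbes here, and the sex pattern was not balanced. The largest rises were those of Kdelr3, a KDEL receptor (log2 fold change 1.41), and Copz2 (1.19). Sec23a, which encodes an inner COPII coat protein, fell by 0.92 and Sec16b, which encodes a scaffold of ER exit sites, fell by 0.61. Cargo receptors supplied 7 of the 13 rises, the COPII group 4 and the COPI coat 2, and no tether or SNARE gene was called. The median log2 fold change of the 44 genes was 0.23, with 33 values above 0, against a median of −0.01 over all genes tested. In 25 genes the COLONIZED-WT libraries all lay above the GF-WT libraries, and in 5 all lay below, where 22.9% and 23.2% of all genes did. Of the 44 genes, 18 are on a goblet cell signature of 400 genes that the study took from earlier single-cell work, and 7 of those 18 rose (median 0.33), beside 6 that rose and 2 that fell among the other 26 (median 0.12).

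edgeR's quasi-likelihood test called 7 of the genes in this comparison at the same adjusted p threshold, among 4.94% of all genes, namely Kdelr3, Copz2, Tmed9, Lman1, Sec24d, Ergic1 and Copz1. A DESeq2 fit of all 18 libraries called 4, Copz2 (1.18), Copz1 (0.56), Preb (0.55) and Sec23a (−0.93), where 9.02% of all genes were. Kdelr3 was not among them. With the Y-linked pattern as a covariate the difference rests on 1 COLONIZED-WT library, since no GF-WT library had the pattern, and Kdelr3 alone was called by DESeq2 (log2 fold change 1.28). Summed goblet markers were 337147 to 451897 in COLONIZED-WT and 215523 to 338534 in GF-WT. Within that list Zg16 (mean 10940 against 54461), Tff3 (4792 against 11060), Fcgbp (62810 against 80335) and Bcas1 (1323 against 2492) were lower in COLONIZED-WT. The other goblet markers had higher means there. Summed stem and cycling markers (10949 to 12273 against 4339 to 8069) and tuft markers (1408 to 2521 against 673 to 921) were higher without overlap in COLONIZED-WT. Mesenchymal (237 to 321 against 368 to 441) and endothelial sums (21.4 to 28.6 against 38.4 to 48.3) were lower without overlap. Colonocyte sums overlapped. Each colonocyte marker but Car1 (mean 99559 against 62246) had a lower mean in COLONIZED-WT, for example Slc26a3 (3335 against 10312) and Car4 (1458 against 8323). The part of these markers in the changes was not tested.

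In conventionally raised WT mice, compared with GF-WT, 7 of the 44 genes were called, where 10.7% of all genes were, 5.56% as higher and 5.14% as lower. The genes that rose were Copz2 (1.76), Sec24d (0.77), Copz1 (0.73), Preb (0.66), Sec13 (0.50) and the ER SNARE gene Sec22b (0.46), and Sec16b fell by 0.88. The median over the 44 genes was 0.17 against 0.00 for all genes tested, and 0.01 with 22 values above 0 when sex was a covariate, a fit that in effect leaves out CONV-WT replicate 1 (median 0.02 without it). The groups did not overlap in 9 genes that were higher and 5 that were lower in CONV-WT, where 17.9% and 18.0% of all genes did not. Summed tuft markers were higher without overlap in CONV-WT (973 to 3171 against 673 to 921), and goblet sums were 560207 and 636592 in its replicates 1 and 2 and 99396 in replicate 3, against 215523 to 338534 in GF-WT. Colonocyte sums overlapped. Each colonocyte marker but Car1 (mean 115056 against 62246) had a lower mean in CONV-WT, for example Slc26a3 (2791 against 10312) and Car4 (974 against 8323). Their part was not tested. The count of calls changed without any 1 of the 6 libraries. It was 2 without GF-WT replicate 1 or 2 or CONV-WT replicate 2, 3 without GF-WT replicate 3 and 4 without CONV-WT replicate 1, where 4.34% to 6.83% of all genes were called. Without CONV-WT replicate 3, 22 of the 44 genes were called, 20 of them higher, while the share of all genes rose to 20.3%, and the median was 0.42. The 15 genes added to the calls of the 6-library fit included Kdelr3 (2.02, adjusted p 2.35e-24), which the fit of all 18 libraries also called (1.54), Lman1 (1.16), Tmed3 (1.04), Tmed9 (0.98), Bet1 (0.79) and Kdelr2 (0.53) as higher, and Sec23a (fell by 1.04) as lower. CONV-WT replicate 3 had the lowest CONV-WT values of these higher genes, such as Kdelr3 (133 against 910 and 927). Leaving it out raises their differences, and the p-values then rest on CONV-WT replicates 1 and 2. Such fits, here and below, describe dependence on 1 library and are not separate evidence. edgeR called none of the 44 genes in this comparison with all 6 libraries (12 had an unadjusted p under 0.05), where it called 0.175% of all genes. In the DESeq2 fit 13 of the 44 had an unadjusted p under 0.05, as 4241 of 14133 genes tested did.

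CONV-WT and COLONIZED-WT were also set against each other. DESeq2 called 0 of 44 genes between these groups, where 0.117% of all genes were called. edgeR called 0 of the 44 and 0 of all genes. An unadjusted DESeq2 p under 0.05 was found for 1 of the 44, and for 1218 of 13708 genes tested. The groups did not overlap in 3 genes that were higher in CONV-WT, where 8.43% of all genes were, and in 0 that were lower, where 7.83% were. The median of the 44 genes was 0.00. Without CONV-WT replicate 3 Copz2 (0.85, adjusted p 0.000444), Kdelr3 (0.61, adjusted p 0.000833) and Tmed3 (0.46, adjusted p 0.000828) were called higher in CONV-WT, where 1.61% of all genes were called. CONV-WT replicates 1 and 2 had goblet sums of 636592 and 560207, against 337147 to 451897 in COLONIZED-WT. Their colonocyte sums were 71955 and 98817, against 112099 to 215164. The part of these markers was not tested.

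The same comparisons were made in the libraries labelled Ern2-/-. Against GF-Ern2-/-, 1 of the 44 genes was called in COLONIZED-Ern2-/-, Arfgap3, which fell by 0.86, where 7.22% of all genes were called and 3.60% were called lower. Summed stem and cycling markers (11818 to 14942 against 4551 to 7632), tuft markers (1490 to 3016 against 686 to 1407) and enteroendocrine markers (1892 to 6063 against 692 to 1014) were higher without overlap in COLONIZED-Ern2-/-. Mesenchymal (244 to 336 against 394 to 612) and endothelial sums (21.1 to 24.3 against 44.8 to 66.2) were lower without overlap. Each colonocyte marker had a lower mean, for example Aqp8 (142 against 3332), although the colonocyte sums overlapped. The part of these markers was not tested. Kdelr3 (1.11, SE 0.33, adjusted p 0.0123), Copz2 (0.94, SE 0.39, adjusted p 0.0926) and Sec24d (0.69) were not called. The median of the 44 genes was 0.18, with 33 above 0, and the groups did not overlap in 10 genes that were higher, where 16.4% of all genes were, and in 3 that were lower, where 16.8% were. By edgeR 0 of the 44 and 0.216% of all genes were called, while 10 of the 44 had an unadjusted p under 0.05. With DESeq2 10 of the 44 had an unadjusted p under 0.05, as 3493 of 13873 genes tested did. Without GF-Ern2-/- replicate 2, when 10.2% of all genes were called, the SNARE gene Bet1 (0.78, adjusted p 0.00867) was called beside Arfgap3, and with the replicate number as a block Kdelr3 (1.11) and Sec24d (0.70) were. Kdelr3 was also called with sex as a covariate (1.14) and without GF-Ern2-/- replicate 1 (1.35), and Preb without GF-Ern2-/- replicate 3 (0.57).

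Between CONV-Ern2-/- and GF-Ern2-/- DESeq2 called 0 of the 44 genes, where 4.36% of all genes were called. Among them 3 had an unadjusted p under 0.05, where 2624 of 13323 genes tested had, and edgeR called 0, beside 0.0325% of all genes. The groups did not overlap in 2 genes that were higher, where 11.6% of all genes were, and in 2 that were lower, where 13.1% were. The median was −0.21, with 32 values below 0. Summed goblet markers were lower without overlap in CONV-Ern2-/- (70843 to 91147 against 106490 to 247589), and tuft (2051 to 2963 against 686 to 1407) and enteroendocrine sums (1533 to 2329 against 692 to 1014) were higher without overlap. Their part was not tested. Without GF-Ern2-/- replicate 2 the median was −0.07 and 1 gene, Sec16b, was called as lower (fell by 1.06, adjusted p 0.000723), where 7.20% of all genes were called. In CONV-Ern2-/- compared with COLONIZED-Ern2-/-, 4 of the 44 genes were called, all 4 lower, where 8.37% of all genes were called and 3.62% were called lower. They were Kdelr3 (−1.31), Sec24d (−0.96), the ER-Golgi cycling protein gene Ergic1 (−0.85) and the lectin receptor gene Lman1 (−0.75), all 4 on the goblet signature. The median was −0.30, with 36 values below 0. In 16 genes the CONV-Ern2-/- libraries all lay below the COLONIZED-Ern2-/- libraries, where 18.0% of all genes did, and in 3 all lay above, where 17.6% did. Summed goblet markers were 70843 to 91147 in CONV-Ern2-/- and 164620 to 314813 in COLONIZED-Ern2-/-. Colonocyte sums (354751 to 474519 against 141031 to 213918) and stem and cycling sums (6589 to 10240 against 11818 to 14942) did not overlap either, nor did endothelial sums (51.1 to 118 against 21.1 to 24.3). The part of these markers was not tested. Without CONV-Ern2-/- replicate 1, 13 genes were called, 12 of them lower, where 18.5% of all genes were. Without COLONIZED-Ern2-/- replicate 1 DESeq2 called 0, where 3.34% of all genes were called, and without any 1 of the other 4 libraries it called 1 or 2, Kdelr3 in each and Sec24d in all but the fit without CONV-Ern2-/- replicate 3. By edgeR 0 of the 44 and 0.282% of all genes were called, while 18 of the 44 had an unadjusted p under 0.05. Unadjusted DESeq2 p-values were under 0.05 in 19 of the 44, and in 3976 of 13340 genes tested. The fit of all 18 libraries called Sec24d alone (−0.97), where 3.24% of all genes were.

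The effect of the genotype label was examined in each microbial state. In CONV mice 2 of the 44 genes were called, both lower in the libraries labelled Ern2-/-, where 2.89% of all genes were called and 1.87% were called lower. Copz2 fell by 2.45 (SE 0.45, adjusted p 1e-05) and Sec24d fell by 1.23 (SE 0.26, adjusted p 0.000151). The median over the 44 genes was −0.24, with 34 below 0, against 0.02 for all genes tested, and it was −0.47 for the 18 goblet signature genes and −0.10 for the other 26. Without CONV-WT replicate 3 the medians of the 44, the 18 and the 26 genes were −0.39, −0.74 and −0.30. That of the 44 was −0.13 without CONV-WT replicate 1. With sex as a covariate, a fit that rests on 1 CONV-WT library, the medians were −0.43, −0.76 and −0.36. In 9 genes the CONV-Ern2-/- libraries all lay below the CONV-WT libraries, where 11.5% of all genes did, and in 2 all lay above, where 9.68% did. Summed goblet markers were 70843 to 91147 in CONV-Ern2-/- and 99396 to 636592 in CONV-WT, and summed colonocyte markers were 354751 to 474519 and 71955 to 323541. Their part in these differences was not tested. Copz2 alone was called without CONV-WT replicate 1 or 2 or CONV-Ern2-/- replicate 3, where 0.972% to 1.29% of all genes were. Without CONV-WT replicate 3 there were 11 calls among the 44 genes, where 12.9% of all genes were called. Then Copz2 (−2.74), Kdelr3 (−2.52), Sec24d (−1.35), Tmed3 (−1.34), Lman1 (−1.26), Ergic1 (−1.18), Kdelr2 (−1.08), Sar1a (−0.81), Arf4 (−0.77) and Tmed9 (−0.70) were lower, and Sec23a was higher (1.12, adjusted p 4.98e-06). By edgeR 0 of the 44 and 0 of all genes were called, while 7 of the 44 had an unadjusted p under 0.05. For DESeq2 with all libraries these were 11 of the 44, and 2231 of 13178 genes tested.

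In GF mice DESeq2 called 0 of the 44 genes between the genotype labels, where 0.0350% of all genes were called. Copz2 alone had an unadjusted p under 0.05, with a difference of −0.81 on the log2 scale (SE 0.32, adjusted p 1), and it was 1 of 2 genes that lay lower in all GF-Ern2-/- libraries, where 3.23% of all genes did. No gene lay higher in all of them, where 2.88% did. edgeR also called 0 of the 44 and 0 of all genes, and 1 of the 44 had an unadjusted p under 0.05. Over all genes DESeq2 gave 254 of 17167 an unadjusted p under 0.05. The median was 0.08 with 31 values above 0, −0.03 without GF-Ern2-/- replicate 2, and −0.12 with 5 values above 0 when sex was a covariate, a fit that rests on 1 GF-Ern2-/- library. In COLONIZED mice 1 gene was called, Copz2, which fell by 1.06 (SE 0.27, adjusted p 0.0069), where 1.36% of all genes were called and 0.846% were called lower. Summed goblet markers were 164620 to 314813 in COLONIZED-Ern2-/- and 337147 to 451897 in COLONIZED-WT, without overlap, and their part was not tested. The groups did not overlap in 7 genes that were higher, where 16.2% of all genes were, and in 8 that were lower, where 13.9% were. The other 43 genes ranged from −0.60 for Kdelr3 to 0.73 for Tmed7, and the median of the 44 was 0.00. Without any 1 of the other 5 libraries 0 of the 44 genes were called, where 0.621% to 1.29% of all genes were. The fit of all 18 libraries also called 0, where 0.181% of all genes were called. Without COLONIZED-Ern2-/- replicate 1, which had the highest goblet marker sum of its group (314813), 7 genes were called, where 5.30% of all genes were. Copz2 (−1.42), Kdelr3 (−0.91), Tmed3 (−0.77), Stx5a (−0.56), Arfgap3 (−0.53) and Cope (−0.50) were then lower and Tmed7 was higher (0.88). By edgeR 0 of the 44 and 0.00786% of all genes were called, while 13 of the 44 had an unadjusted p under 0.05. DESeq2 gave 13 of the 44 an unadjusted p under 0.05, as it did 2681 of 12181 genes tested. With sex as a covariate DESeq2 called 0, where 1.05% of all genes were called.

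**Figure D1:**
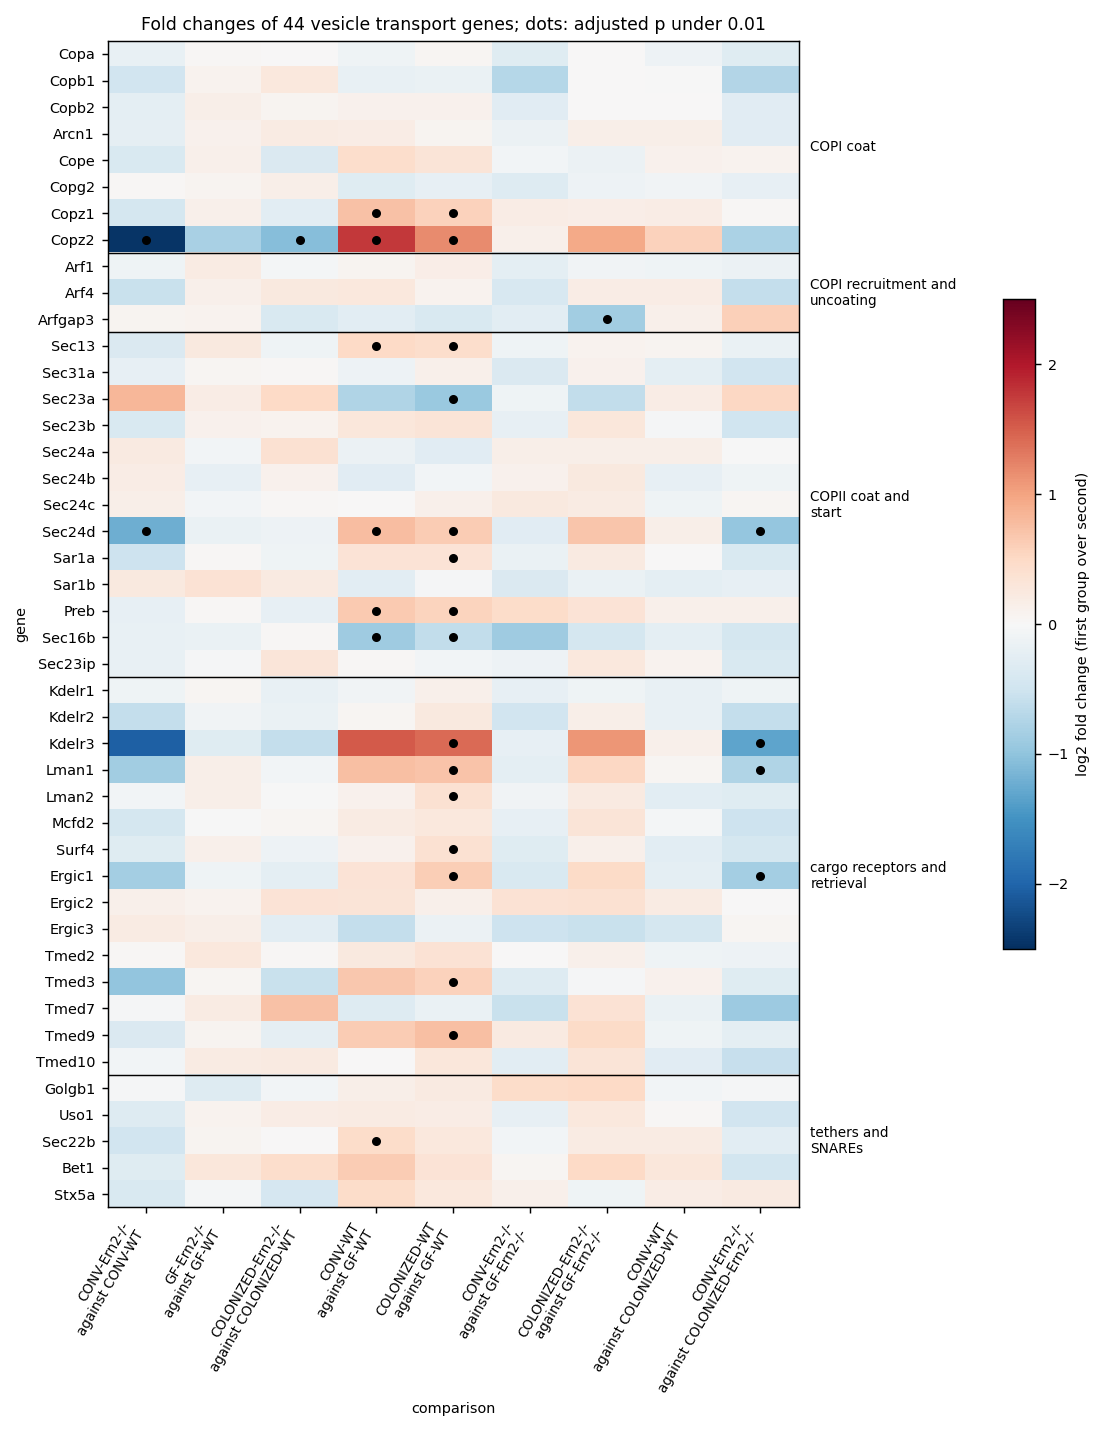
Log2 fold changes (colour, first group over second) of the 44 genes in rows, ordered by role, in 9 comparisons in columns. Dots mark DESeq2 adjusted p under 0.01, of which 15 lie in the column of COLONIZED-WT against GF-WT and none in that of GF-Ern2-/- against GF-WT; Copz2 has −2.45 between the CONV groups and 1.76 between CONV-WT and GF-WT.

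An interaction term tested whether the microbial states changed the genes differently under the 2 genotype labels. For CONV against GF mice DESeq2 called 0 of the 44 genes, where 0.178% of all genes were called. edgeR called 0 of the 44 and 0 of all genes. An unadjusted DESeq2 p under 0.05 was found for 9 of the 44, and for 1128 of 12938 genes tested. The median interaction was −0.33, with 37 of 44 values below 0, against −0.02 over all genes tested. It was −0.54 without CONV-WT replicate 3 and −0.19 without CONV-WT replicate 1. The lowest values were those of Kdelr3 (−1.74, adjusted p 0.415), Copz2 (−1.64, adjusted p 0.176) and Sec24d (−1.05, adjusted p 0.193). Without CONV-WT replicate 3, 5 genes were called where 2.24% of all genes were, Kdelr3 (−2.22, adjusted p 3.5e-06), Copz2 (−1.93, adjusted p 0.00353), Lman1 (−1.40, adjusted p 0.00197), Tmed3 (−1.37, adjusted p 0.00118) and Sar1a (−0.83, adjusted p 0.00114). Leaving out GF-Ern2-/- replicate 2 as well gave 6 calls, where 5.01% of all genes were called, with Sec23a (1.21, adjusted p 0.000388) as the only positive interaction. For COLONIZED against GF mice DESeq2 called 0, where 0.0280% of all genes were called, and edgeR called 0 of the 44 and 0 of all genes. Unadjusted DESeq2 p-values were under 0.05 in 3 of the 44, and in 1030 of 17884 genes tested. The median was −0.07, which became 0.13 with sex as a covariate and 0.03 without GF-Ern2-/- replicate 2. The interactions share their GF libraries with each other.

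CONV-WT replicate 3 differed from the other CONV-WT libraries by role. Relative to the mean of replicates 1 and 2, and with 1 added to each value, 38 of the 44 genes were lower in replicate 3 and the median log2 difference was −0.68, against −0.05 over 10015 genes with a mean of at least 100 normalized counts. All 15 cargo receptor genes were lower (median −1.52), and 12 of them were at least 2-fold lower, as 14.1% of those 10015 genes were. Kdelr3 (133 against a mean of 919) and Kdelr2 (663 against 4029) had the lowest ratios, with log2 differences of −2.78 and −2.60. The COPII group (median −0.40) and the COPI coat (−0.51) were nearer to the other libraries, although Copb1 (−1.40), Sar1a (−1.19), Sar1b (−1.08) and Copz2 (−1.07) were also at least 2-fold lower. Sec23a (0.75), Arfgap3 (0.53), Sec13 (0.21), Copz1 (0.14), Preb (0.04) and Stx5a (0.03) were higher. Of the 18 goblet signature genes 17 were lower (median −0.99), and of the other 26 genes 21 were (median −0.49).

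**Figure D2:**
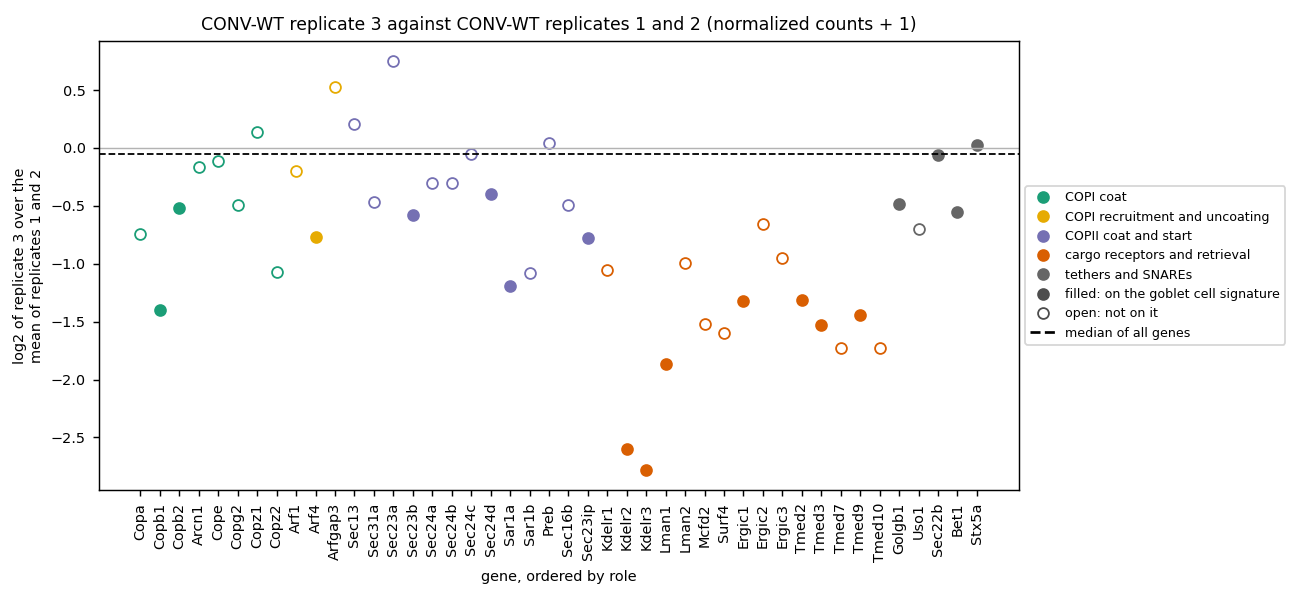
Log2 of CONV-WT replicate 3 over the mean of CONV-WT replicates 1 and 2 (y axis, normalized counts + 1) for each of the 44 genes (x axis, coloured by role; filled, on the goblet cell signature). The 15 cargo receptor genes all lie below the dashed median of all genes at −0.05, down to −2.78 for Kdelr3.

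Promoter sequences are shown for Copz2 and Kdelr3, the genes with the widest ranges over the libraries. They are the 250 bases before the start of the RefSeq entry on GRCm38.p6, + strand, with capitals where a motif searched for below lies.
Copz2 (chr11:96849626-96849875): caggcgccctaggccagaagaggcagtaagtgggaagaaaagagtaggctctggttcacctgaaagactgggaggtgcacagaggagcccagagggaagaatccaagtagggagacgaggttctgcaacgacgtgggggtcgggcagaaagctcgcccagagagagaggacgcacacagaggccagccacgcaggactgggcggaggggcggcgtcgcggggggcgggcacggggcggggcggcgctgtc
Kdelr3 (chr15:79516158-79516407): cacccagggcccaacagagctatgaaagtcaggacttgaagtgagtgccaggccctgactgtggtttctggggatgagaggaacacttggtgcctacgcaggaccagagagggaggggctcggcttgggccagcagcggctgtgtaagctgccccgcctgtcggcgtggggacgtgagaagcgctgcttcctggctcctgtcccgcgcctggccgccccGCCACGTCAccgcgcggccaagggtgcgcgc
RefSeq promoter entries, from 250 bases before to 50 bases after a start site, were matched by symbol for 38 of the 44 genes and gave 43 promoters. They were searched on both strands for motifs that XBP1 or ATF6, transcription factors of the unfolded protein response, are known to bind. The letters TGACGTGG, the core of the unfolded protein response element (UPRE), were found in 9 of the 43 promoters, belonging to Arf1, Copb1, Copb2, Kdelr3, Sec16b, Sec23a, Sec24d and Stx5a, and in 222 of 32851 promoters of all genes (0.676%). The letters GACGTGGC, which overlap the UPRE core by 7 letters, were found in 13 of the 43, belonging to Arf1, Copz2, Kdelr3, Sar1a, Sec13, Sec16b, Sec23a, Sec24c, Sec24d, Stx5a, Tmed3 and Uso1, and in 251 of all promoters (0.764%). Arf1 has overlapping promoter entries that hold the same site, so this site is counted more than once in the 9 and in the 13. The ER stress response element, CCAAT and CCACG with 9 bases between, was found in 0 of the 43 and in 39 of all promoters (0.119%). The genes with a UPRE core did not move as 1 group, since in COLONIZED-WT compared with GF-WT Kdelr3 and Sec24d rose, Sec16b and Sec23a fell, and Arf1, Copb1, Copb2 and Stx5a were not called. Copz2 had the GACGTGGC letters only after its start site.

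Short windows around the match are given for the called genes, with the match in capitals and its first and last base counted from the start site as base 0.
Kdelr3, −30 to −23 (chr15:79516368-79516395): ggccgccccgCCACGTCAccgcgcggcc
Sec24d, −26 to −19 (chr3:123267460-123267487): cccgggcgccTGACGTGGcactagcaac
Sec16b, −44 to −37 (chr1:157506742-157506769): tctgtgtggcTGACGTGGcacggcagtt
Sec23a, 6 to 13 (chr12:59011994-59012021, − strand): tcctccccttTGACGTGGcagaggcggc
Copz2, 39 to 46 (chr11:96849905-96849925): cggaggcctgGCCACGTCcgc
Sec13, −3 to 4 (chr6:113740667-113740694, − strand): gttttgagctGCCACGTCcgaggccgtg
Tmed3, −202 to −195 (chr9:89705228-89705255, − strand): tttctccggaGACGTGGCagacactaag
Tmed3, 29 to 36 (chr9:89704997-89705024, − strand): ctgagctcgcGCCACGTCtcttcagggg
Sar1a, −158 to −151 (chr10:61680117-61680144): gacagacgctGCCACGTCttaccccgct
In Kdelr3, Copz2, Sec13, Sar1a and the Tmed3 match after the start site the motif reads on the strand opposite to the gene. A match describes these letters only.

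In the COPI coat, Copz2 separated the groups most. Copz2 lies at chr11:96849870-96861203 on the + strand (GRCm38, GENCODE M21). No exon of another gene annotated as protein coding, lincRNA, antisense or processed transcript overlaps its exons. Other gene types were not searched. Copz2 had 102, 127 and 93.0 normalized counts in replicates 1 to 3 of GF-WT, while COLONIZED-WT had 248, 226 and 258 and CONV-WT 394, 492 and 210. The values under the Ern2-/- label were 55.2, 49.1 and 79.2 for GF, 167, 73.8 and 109 for COLONIZED and 42.8, 97.8 and 63.5 for CONV. All 6 WT libraries with microbes thus lay above all 9 libraries labelled Ern2-/- and above all 3 GF-WT libraries. In order of the group mean, CONV-WT had 365 ± 143 (SD, n = 3), COLONIZED-WT 244 ± 16.3, COLONIZED-Ern2-/- 117 ± 47.2, GF-WT 108 ± 17.9, CONV-Ern2-/- 68.0 ± 27.8 and GF-Ern2-/- 61.2 ± 15.9. Neighbours in this order overlapped except COLONIZED-WT and COLONIZED-Ern2-/-. The raw counts behind these values were low, from 23 in CONV-Ern2-/- replicate 3 to 498 in CONV-WT replicate 2.

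Copz2 rose in CONV-WT compared with GF-WT (1.76, SE 0.36, adjusted p 4.46e-05) and in COLONIZED-WT compared with GF-WT (1.19, SE 0.20, adjusted p 8.55e-08), and fell between the genotype labels in CONV mice, and it was called in all 6 fits that left out 1 library in each of these 3 comparisons. Its fall in COLONIZED mice was called in 1 of 6 such fits, without COLONIZED-Ern2-/- replicate 1, and had an adjusted p of 0.0344 to 0.104 without each of the other 5 libraries. Its levels in CONV-Ern2-/- and GF-Ern2-/- did not separate (0.13, SE 0.45, adjusted p 0.928). edgeR gave adjusted p of 0.0068 for COLONIZED-WT against GF-WT, 0.0309 for CONV-WT against GF-WT, 0.0743 between genotype labels in CONV and 0.164 in COLONIZED mice. Mesenchymal markers, of which 14 of 14 were found in the table, summed to 251 to 579 in CONV-WT and 244 to 599 in CONV-Ern2-/-. Without Pdgfrb, which had 76.7 to 535 normalized counts over the 18 libraries, the other 13 markers summed to 73.7, 79.9 and 65.9 in replicates 1 to 3 of GF-WT, to 79.9, 63.2 and 54.8 in COLONIZED-WT, to 73.6, 119 and 502 in CONV-WT and to 81.5, 313 and 447 in CONV-Ern2-/-. All 13 were higher on average in CONV-WT than in GF-WT, for example Des (26.7 against 0.952) and Acta2 (29.1 against 1.67), with the highest sum in CONV-WT replicate 3, the CONV-WT library with the least Copz2. Their part in the Copz2 differences was not tested. Copz2 is not on the goblet signature. Its highest levels were in the libraries with the highest goblet marker sums, CONV-WT replicates 1 and 2. Other libraries did not keep this order. Copz2 was at 93.0 beside a goblet sum of 338534 in GF-WT replicate 3, and at 210 beside 99396 in CONV-WT replicate 3. The part of goblet markers in the Copz2 differences was not tested.

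Copz1, the abundant paralog, had 2684, 2684 and 2389 normalized counts in replicates 1 to 3 of GF-WT, while COLONIZED-WT had 3950, 3719 and 3759 and CONV-WT 4298, 4079 and 4620. The values under the Ern2-/- label were 2755, 3096 and 2606 for GF, 3576, 2866 and 3040 for COLONIZED and 2785, 3488 and 3386 for CONV. The WT libraries with microbes were the 6 highest, and those labelled Ern2-/- overlapped across the microbial states. Copz1 rose in COLONIZED-WT (0.57, SE 0.11, adjusted p 1.14e-05, edgeR 0.0097) and in CONV-WT (0.73, SE 0.14, adjusted p 6.83e-06, edgeR 0.0347) compared with GF-WT, in all 6 fits without 1 library in each case. It was not lowered in CONV-WT replicate 3. Between the genotype labels in CONV mice Copz1 had a log2 fold change of −0.43 that was not called in the fit of those 6 libraries and was called in 1 fit of all 18.

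Copz2 made up a small and variable share of the 2 ζ-COP transcripts. Of the summed raw counts of Copz1 and Copz2, Copz2 took 3.98% ± 0.480 in GF-WT (SD, n = 3), 6.02% ± 0.357 in COLONIZED-WT and 7.84% ± 3.24 in CONV-WT. Its share under the Ern2-/- label was 2.16% ± 0.714 for GF, 3.48% ± 0.979 for COLONIZED and 2.03% ± 0.627 for CONV mice. CONV-WT replicate 3 had a share of 4.35%, within the GF-WT range of 3.67% to 4.54%, and the highest share was 10.8% in CONV-WT replicate 2. These shares depend neither on library size nor on the normalization, and they are given as a description without a test.

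The other COPI coat genes, Copa, Copb1, Copb2, Arcn1, Cope and Copg2, were called in none of the 9 comparisons with all libraries of the groups compared, except Copb1 with the replicate number as a block in CONV-Ern2-/- against COLONIZED-Ern2-/- (−0.76). In COLONIZED-WT compared with GF-WT the lowest value of the coat was that of Copg2 (−0.20), a γ subunit whose exons overlap those of Mest on the opposite strand. Between the genotype labels in CONV mice 7 of the 8 coat genes were below 0, and in 4 of the 8 all CONV-Ern2-/- libraries lay below all CONV-WT libraries, where 11.5% of all genes did. Among the genes that recruit and uncoat COPI, the GTPase genes Arf1 and Arf4 were not called in any comparison with all libraries, except Arf4 with TMM size factors in CONV-Ern2-/- against COLONIZED-Ern2-/- (−0.61). Arfgap3, which encodes an activator of GTP hydrolysis by ARF1, had 3823, 3720 and 2863 normalized counts in GF-Ern2-/- and 2272, 1558 and 1923 in COLONIZED-Ern2-/-. It fell there by 0.86 (SE 0.22, adjusted p 0.00216), with adjusted p of 0.0279 to 0.030 without GF-Ern2-/- replicate 1 or either of COLONIZED-Ern2-/- replicates 2 and 3. In WT mice the difference had the same sign (−0.38) and was not called with all libraries, while it was called without GF-WT replicate 1 (−0.46).

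**Figure D3:**
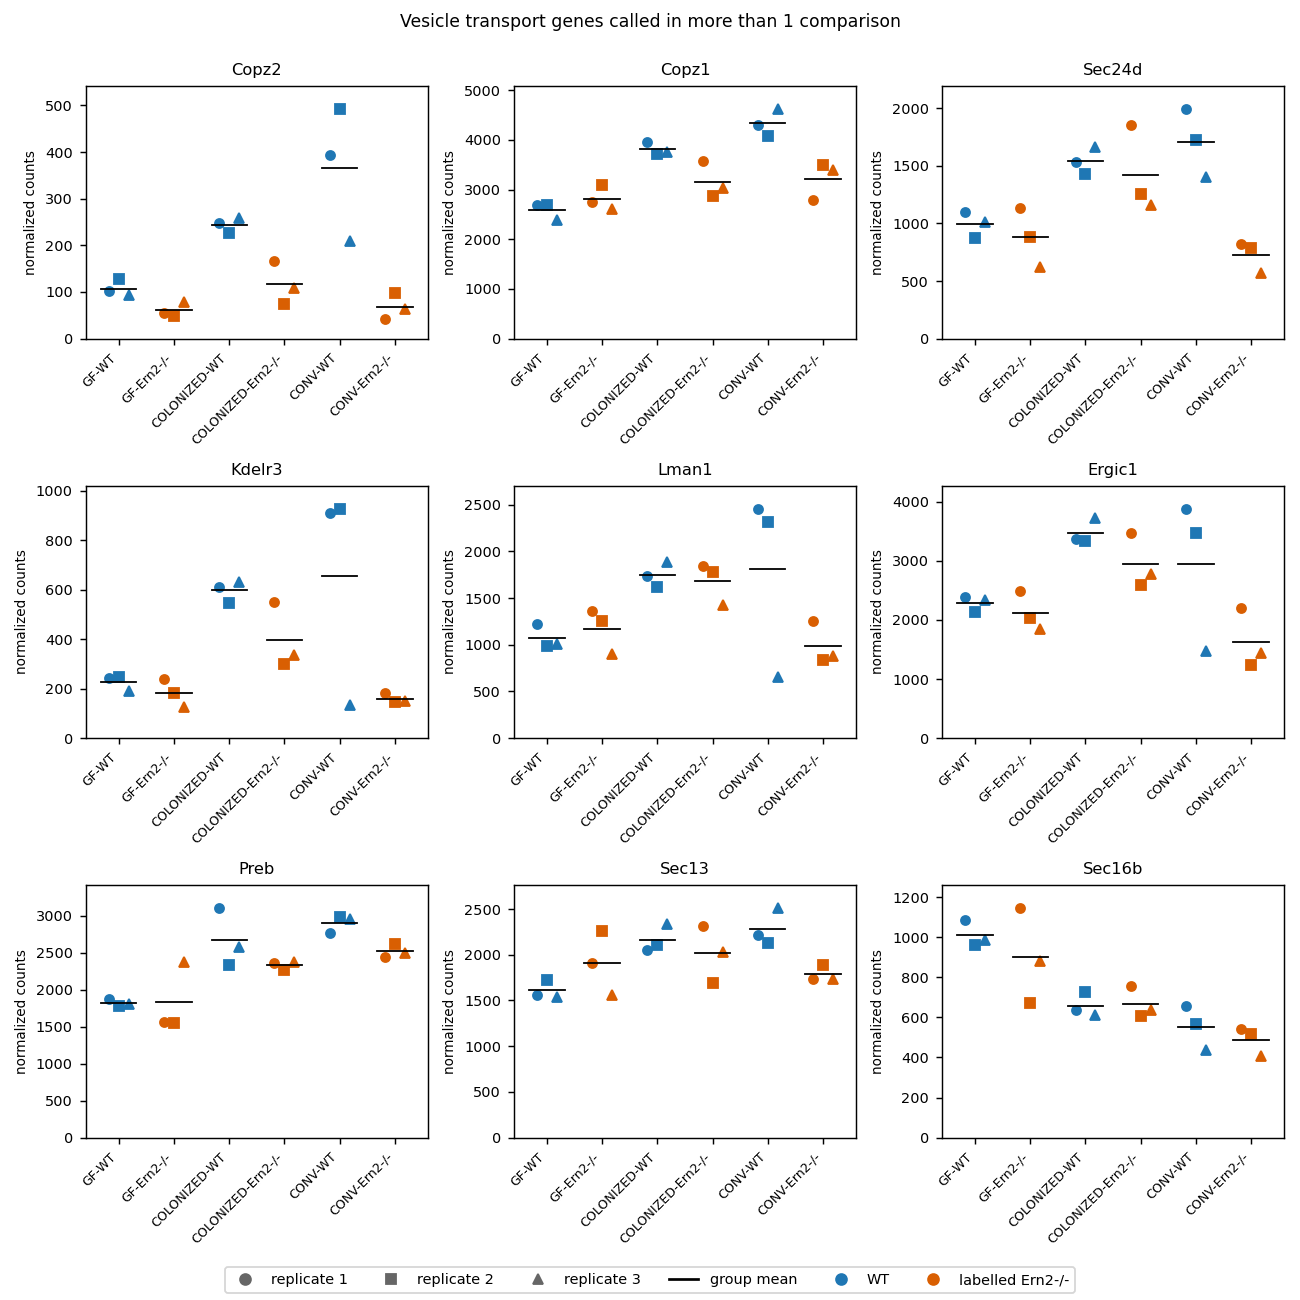
Normalized counts (y axis, from 0) in each of the 18 libraries for the 9 genes called in more than 1 comparison. Points are libraries, their shape is the replicate number, and black lines are group means; all 6 WT libraries with microbes lie above all 9 libraries labelled Ern2-/- for Copz2, and CONV-WT replicate 3 (triangle) lies far below its group for Kdelr3 (133 against 910 and 927) and Lman1 (654 against 2458 and 2320).

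In the COPII coat, Sec24d responded most often. SEC24D is a cargo adaptor of the inner coat, and its gene is on the goblet signature. Sec24d had 1099, 875 and 1015 normalized counts in replicates 1 to 3 of GF-WT, while COLONIZED-WT had 1532, 1430 and 1665 and CONV-WT 1993, 1721 and 1408. With the Ern2-/- label the GF libraries had 1132, 884 and 622, the COLONIZED libraries 1853, 1258 and 1157 and the CONV libraries 825, 784 and 568. The WT libraries with microbes lay above all GF-WT libraries, and the CONV-Ern2-/- libraries lay below all WT libraries. Sec24d rose in COLONIZED-WT (0.64, SE 0.14, adjusted p 0.000121, edgeR 0.0095), in all 6 fits without 1 library, and in CONV-WT (0.77, SE 0.21, adjusted p 0.00341) compared with GF-WT. The CONV-WT call was kept in 1 of 6 such fits, without CONV-WT replicate 3, with adjusted p of 0.0257 to 0.088 in the others. Its fall between the genotype labels in CONV mice was lost without CONV-WT replicate 1 (adjusted p 0.0267), CONV-WT replicate 2 (0.021) or CONV-Ern2-/- replicate 3 (0.012). Its fall in CONV-Ern2-/- compared with COLONIZED-Ern2-/- (−0.96, SE 0.25, adjusted p 0.00223) was lost without COLONIZED-Ern2-/- replicate 1 (0.0467) or CONV-Ern2-/- replicate 3 (0.0354).

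Of the summed counts of the 4 Sec24 genes, Sec24d took 14.8% ± 0.865 in GF-WT (SD, n = 3), 21.1% ± 0.829 in COLONIZED-WT and 23.7% ± 2.03 in CONV-WT, and 14.1% ± 3.22, 18.7% ± 3.63 and 10.5% ± 1.16 in the corresponding groups labelled Ern2-/-. CONV-WT replicate 3, at 21.5%, stayed within the range of the COLONIZED-WT libraries. Sec24a, Sec24b and Sec24c were not called in any comparison.

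Of the inner coat paralogs, Sec23a was called and Sec23b was not. Sec23a had 1559, 1579 and 2008 normalized counts in GF-WT and 648, 1013 and 1047 in COLONIZED-WT, and it fell there by 0.92 (SE 0.21, adjusted p 0.000182, edgeR 0.0168) in all 6 fits without 1 library. Its exons overlap an annotated transcript on the opposite strand, Gm17529. Sec23b, which is on the goblet signature, was not called in any comparison, and the difference between the paralogs was not tested. Sec23b took 41.7% ± 2.89 of their summed counts in GF-WT (SD, n = 3), 62.9% ± 6.81 in COLONIZED-WT and 59.2% ± 13.1 in CONV-WT, where replicate 3 had 44.3%. It took 40.7% ± 3.34 in GF-Ern2-/-, 55.8% ± 4.54 in COLONIZED-Ern2-/- and 38.2% ± 2.01 in CONV-Ern2-/-. The COLONIZED libraries of both genotype labels lay above all GF libraries in this share. Of the SAR1 paralogs, Sar1a rose in COLONIZED-WT (0.35, SE 0.11, adjusted p 0.00807), with adjusted p of 0.0238 to 0.0347 without GF-WT replicate 2 or without any of the 3 COLONIZED-WT libraries, and Sar1b was not called.

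**Figure D4:**
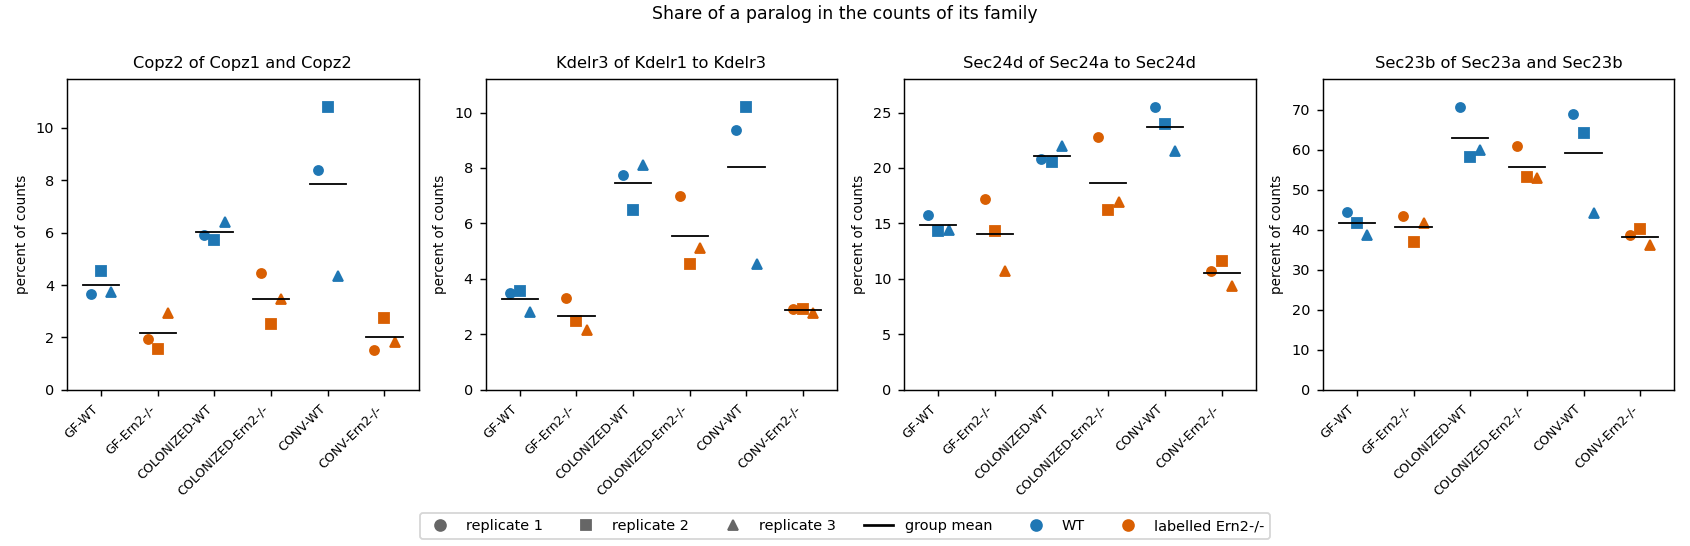
Percent of the summed raw counts of a paralog family (y axis, from 0) that came from Copz2, Kdelr3, Sec24d or Sec23b in each library, with group means as black lines. In all 4 panels the COLONIZED-WT libraries lie above the GF-WT libraries, for Copz2 at 5.73% to 6.42% against 3.67% to 4.54%.

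Preb, whose product starts COPII assembly, had 1880, 1781 and 1802 normalized counts in replicates 1 to 3 of GF-WT, while COLONIZED-WT had 3105, 2330 and 2574 and CONV-WT 2764, 2986 and 2960. With the Ern2-/- label the GF libraries had 1566, 1553 and 2373, the COLONIZED libraries 2363, 2269 and 2379 and the CONV libraries 2446, 2622 and 2505. All WT libraries with microbes lay above all GF-WT libraries, and GF-Ern2-/- replicate 3 lay with the libraries that had microbes. Preb rose in COLONIZED-WT (0.56, SE 0.15, adjusted p 0.00118) and in CONV-WT (0.66, SE 0.12, adjusted p 8.76e-07) compared with GF-WT. The first call was lost without GF-WT replicate 2 (0.0138), and the CONV-WT call without GF-WT replicate 1 (0.0117), GF-WT replicate 2 (0.0139) or CONV-WT replicate 2 (0.0237). Exons of Preb overlap those of Abhd1 on the opposite strand.

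Sec13, an outer coat gene, had 1560, 1727 and 1542 normalized counts in replicates 1 to 3 of GF-WT, while COLONIZED-WT had 2049, 2102 and 2341 and CONV-WT 2216, 2134 and 2509. With the Ern2-/- label the GF libraries had 1909, 2255 and 1555, the COLONIZED libraries 2320, 1695 and 2032 and the CONV libraries 1730, 1893 and 1738. Only the WT groups separated by microbes. Sec13 rose in COLONIZED-WT (0.44, SE 0.12, adjusted p 0.00312) and in CONV-WT (0.50, SE 0.15, adjusted p 0.00908) compared with GF-WT. It was called in 3 of 6 fits without 1 library in the former, where GF-WT replicate 1, COLONIZED-WT replicate 2 and COLONIZED-WT replicate 3 were needed (adjusted p of 0.0116 to 0.0263), and only without CONV-WT replicate 3 in the latter. Its partner in the cage, Sec31a, was called only without CONV-Ern2-/- replicate 1 in CONV-Ern2-/- against COLONIZED-Ern2-/- (−0.65).

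Sec16b fell in both WT groups with microbes. It had 1087, 960 and 984 normalized counts in replicates 1 to 3 of GF-WT, while COLONIZED-WT had 637, 726 and 610 and CONV-WT 656, 567 and 435. The values under the Ern2-/- label were 1145, 674 and 883 for GF, 755, 606 and 639 for COLONIZED and 540, 518 and 406 for CONV. All WT libraries with microbes lay below all GF-WT libraries, and so did all CONV-Ern2-/- libraries relative to GF-Ern2-/-. Sec16b fell by 0.61 in COLONIZED-WT (SE 0.14, adjusted p 0.000151, edgeR 0.0106), in all 6 fits without 1 library, and by 0.88 in CONV-WT (SE 0.22, adjusted p 0.000867). The CONV-WT call was lost without GF-WT replicate 1, 2 or 3 or CONV-WT replicate 2, with adjusted p of 0.0233 to 0.0403. In CONV-Ern2-/- compared with GF-Ern2-/- Sec16b had −0.89 and was not called. It was called there in the fit of all 18 libraries (−0.88) and without GF-Ern2-/- replicate 2 (−1.06). The remaining gene of this group, Sec23ip, was not called in any comparison.

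Among the cargo receptors and retrieval genes, Kdelr3 had the largest changes. It is the least abundant of the 3 KDEL receptor genes, at 262 normalized counts per kb against 1496 for Kdelr2 and 2029 for Kdelr1. Kdelr3 had 243, 247 and 190 normalized counts in replicates 1 to 3 of GF-WT, while COLONIZED-WT had 612, 546 and 632 and CONV-WT 910, 927 and 133. With the Ern2-/- label the GF libraries had 239, 184 and 125, the COLONIZED libraries 550, 301 and 334 and the CONV libraries 182, 144 and 149. COLONIZED libraries of both labels lay above all GF libraries, while CONV-WT replicate 3 lay below all GF-WT libraries. Kdelr3 rose in COLONIZED-WT compared with GF-WT (1.41, SE 0.17, adjusted p 9.52e-15, edgeR 0.0041), in all 6 fits without 1 library. In the fit of all 18 libraries Kdelr3 was not called there. In CONV-WT compared with GF-WT its log2 fold change of 1.53 was not called, while it was 2.02 and called without CONV-WT replicate 3, and 1.54 and called in the fit of all 18 libraries. It was lower in CONV-Ern2-/- than in COLONIZED-Ern2-/- (−1.31, SE 0.29, adjusted p 0.000305), a call that was lost without COLONIZED-Ern2-/- replicate 1 (0.0109) and in the fit of all 18 libraries. The value of −2.05 between the genotype labels in CONV mice was not called in the fit of those 6 libraries and was called in the fit of all 18. Kdelr3 took 3.29% ± 0.412 of the KDEL receptor counts in GF-WT (SD, n = 3), 7.45% ± 0.841 in COLONIZED-WT, 8.03% ± 3.06 in CONV-WT, and 2.66% ± 0.593, 5.56% ± 1.29 and 2.87% ± 0.0949 in the GF, COLONIZED and CONV groups labelled Ern2-/-. Kdelr1 and Kdelr2 were not called in any comparison with all libraries of the groups compared.

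Lman1, the gene of the lectin receptor ERGIC-53, had 1218, 988 and 1003 normalized counts in replicates 1 to 3 of GF-WT, while COLONIZED-WT had 1742, 1618 and 1884 and CONV-WT 2458, 2320 and 654. With the Ern2-/- label the GF libraries had 1359, 1258 and 905, the COLONIZED libraries 1848, 1776 and 1425 and the CONV libraries 1258, 840 and 875. As with Kdelr3, COLONIZED libraries lay above the GF libraries in both genotypes, and for Lman1 CONV-WT replicate 3 was the lowest library of all. Lman1 rose in COLONIZED-WT compared with GF-WT (0.72, SE 0.14, adjusted p 1.08e-05, edgeR 0.00791), in all 6 fits without 1 library. It was lower in CONV-Ern2-/- than in COLONIZED-Ern2-/- (−0.75, SE 0.22, adjusted p 0.0091), a call kept only without CONV-Ern2-/- replicate 1 and otherwise at an adjusted p of 0.0167 to 0.10. Mcfd2, which encodes the partner of LMAN1 in cargo binding, was not called in any comparison with all libraries.

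Ergic1 had 2383, 2143 and 2346 normalized counts in replicates 1 to 3 of GF-WT, while COLONIZED-WT had 3364, 3345 and 3722 and CONV-WT 3884, 3478 and 1477. With the Ern2-/- label the GF libraries had 2494, 2039 and 1843, the COLONIZED libraries 3478, 2593 and 2773 and the CONV libraries 2207, 1233 and 1440. The COLONIZED libraries lay above all GF libraries, and CONV-Ern2-/- replicates 2 and 3 and CONV-WT replicate 3 were the lowest. Ergic1 rose in COLONIZED-WT compared with GF-WT (0.61, SE 0.12, adjusted p 5.76e-06, edgeR 0.00846), in all 6 fits without 1 library. It was lower in CONV-Ern2-/- than in COLONIZED-Ern2-/- (−0.85, SE 0.25, adjusted p 0.00963), called only without CONV-Ern2-/- replicate 1 and otherwise at 0.0298 to 0.116. Ergic2 and Ergic3 were not called in any comparison.

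Another 4 receptor genes rose in COLONIZED-WT compared with GF-WT and were called nowhere else with all libraries. Of the p24 family, which binds cargo in both coats, Tmed9 rose by 0.76 (SE 0.14, adjusted p 1.92e-06, edgeR 0.00784), with 2638 to 2695 normalized counts in COLONIZED-WT against 1340 to 1723 in GF-WT, in all 6 fits without 1 library. Tmed3 rose by 0.57 (SE 0.18, adjusted p 0.00749), at 2358 to 2523 against 1252 to 1921, and its call was lost without GF-WT replicate 2 (0.016) or any of the COLONIZED-WT libraries (0.0301 to 0.0582). Surf4, a receptor for soluble cargo, rose by 0.39 (SE 0.10, adjusted p 0.00163), lost without COLONIZED-WT replicate 2 (0.0104) or 3 (0.0144). Lman2, a lectin gene, rose by 0.38 (SE 0.11, adjusted p 0.00306), lost without GF-WT replicate 2 or any of the COLONIZED-WT libraries (0.0123 to 0.0191). Tmed2, Tmed7 and Tmed10 were not called in any comparison with all libraries, except Tmed2 with the low-count filter in COLONIZED-WT against GF-WT (0.37), and Tmed7 shares 838 exonic bases with Ticam2 on the same strand, so its counts are uncertain. Of the tethers and SNAREs, Sec22b rose in CONV-WT compared with GF-WT (0.46, SE 0.14, adjusted p 0.00925) and was called only without CONV-WT replicate 3 among the fits that left out 1 library, with 0.0947 to 0.219 in the others. The tether genes Golgb1 and Uso1 and the SNARE genes Bet1 and Stx5a were not called in any comparison with all libraries, and all 5 genes of this group were above 0 in both WT groups with microbes.

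Other genes of ER to Golgi transport, from a list of 49 that are not among the 44, were examined for comparison, and 47 were found in the table. In COLONIZED-WT compared with GF-WT 4 of the 47 rose, where 9.13% of all genes did and 8.75% fell. They were Creb3l1 (0.71, adjusted p 3.56e-05), the gene of a transcription factor that acts on secretory genes, Lman2l (0.49), Gorasp2 (0.42) and Sec16a (0.38), while 2 fell, Mia2 (−1.48) and Cnih4 (−0.67). The median of the 47 was 0.13. In CONV-WT compared with GF-WT Tmed6 rose (1.13, adjusted p 0.00598) while Mia2 (−1.62) and Cnih4 (−0.86) fell, 1 and 2 of the 47, where 5.56% and 5.14% of all genes did. Creb3l1 in CONV-Ern2-/- was lower than in CONV-WT (−1.52, adjusted p 0.00982), the 1 call of that comparison, where 1.87% of all genes were lower, and than in COLONIZED-Ern2-/- (−1.39, adjusted p 1.86e-07). Cnih4 alone was called in COLONIZED-Ern2-/- compared with GF-Ern2-/- (fell by 0.66), where 3.60% of all genes fell. Yipf5 was also lower in CONV-Ern2-/- than in COLONIZED-Ern2-/- (−0.75), which makes 2 of the 47, where 3.62% of all genes were. None of the 47 was called between the genotype labels in GF or COLONIZED mice, in CONV-Ern2-/- against GF-Ern2-/-, in CONV-WT against COLONIZED-WT or in the interactions. Of these 13 calls, 4 held in every fit without 1 library, those of Creb3l1, Mia2 and Cnih4 in COLONIZED-WT and of Creb3l1 in CONV-Ern2-/- against COLONIZED-Ern2-/-. The others were each lost without 1 or more libraries, that of Creb3l1 between the CONV groups without any but CONV-WT replicate 3 (adjusted p 0.0202 to 0.14), and that of Sec16a without GF-WT replicate 1 or 2 or COLONIZED-WT replicate 1 or 3 (0.0125 to 0.0581). Gorasp2 was lost without COLONIZED-WT replicate 3 alone (0.0124).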

How the data were processed

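RNA-Seq was measured in 18 libraries of colon crypt epithelium, 3 in each of 6 groups taken from the sample labels. The deposited table holds raw read counts per gene, which the authors made from stranded mRNA libraries. The submitters' processing notes name STAR, DESeq2 and mm10, and the counting step's strand setting and annotation were not given in the sources used here. Of its 24047 genes, 27 symbols read as dates and 2 occur more than once, none of them among the genes described. Each comparison was fitted with DESeq2 1.42.0 (R 4.3.3) on its own libraries, with p-values adjusted over all genes tested (Benjamini-Hochberg) and 0.01 as the threshold of a call. Interactions were fitted on 12 libraries. Totals of 5865619 to 23154481 counts limit the precision of low genes such as Copz2.

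Alternatives were edgeR 4.0.16 (quasi-likelihood), TMM size factors, a filter of 10 counts in 3 libraries, 1 fit of all 18 libraries, the replicate number as a block, sex from Y-linked genes as a covariate, and leaving out each library. Leaving out 2 libraries from the CONV interaction was added after seeing the data. The code was tested on simulated data. Genes called in more than 1 comparison are given in every library, and other called genes by their fold change. The 44 genes and all lists were chosen with earlier results of these data known. Exon lengths and coordinates came from GENCODE M21 (GRCm38) and promoters from RefSeq (GRCm38.p6).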

Additional observations from a re-analysis of the deposited data

How the results depend on the processing

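The calls depended on the test and on single libraries, and where no library is named the cause was not tested. Over the 30 calls of 17 genes, edgeR kept 7, the fit of all 18 libraries 15, sex as a covariate 9, TMM size factors 29 and the low-count filter all 30, and none changed direction. Of 180 fits of these calls without 1 library, 116 kept the call. Among the 44 genes, edgeR called 7 in COLONIZED-WT against GF-WT and 0 in CONV-WT against GF-WT, in CONV-Ern2-/- against CONV-WT, in COLONIZED-Ern2-/- against COLONIZED-WT and in COLONIZED-Ern2-/- or CONV-Ern2-/- against the other microbial states of that label. Shares in parentheses are of all genes called, in the same fit or over the same fits. Sex as a covariate gave 1 call in COLONIZED-WT (1.88%) and 4 in CONV-WT (6.70%) against GF-WT, 1 (1.89%) and 0 (1.05%) between the genotype labels in CONV and COLONIZED mice, 2 in COLONIZED-Ern2-/- against GF-Ern2-/- (6.93%) and 2 in CONV-Ern2-/- against COLONIZED-Ern2-/- (4.82%). The fit of all 18 libraries gave 4 calls in COLONIZED-WT (9.02%) and 8 in CONV-WT (14.0%) against GF-WT, and 5 (5.01%) and 0 (0.181%) between the genotype labels in CONV and COLONIZED mice. It gave 1 each in COLONIZED-Ern2-/- against GF-Ern2-/- (Arfgap3, 8.30%), CONV-Ern2-/- against GF-Ern2-/- (6.73%) and CONV-Ern2-/- against COLONIZED-Ern2-/- (3.24%). Without 1 library the calls ranged from 10 to 15 in COLONIZED-WT (9.02% to 19.3%) and from 2 to 22 in CONV-WT (4.34% to 20.3%) against GF-WT, from 0 to 3 in CONV-WT against COLONIZED-WT (0.00597% to 1.61%), from 1 to 11 (0.972% to 12.9%) and from 0 to 7 (0.621% to 5.30%) between the genotype labels in CONV and COLONIZED mice, from 0 to 2 in COLONIZED-Ern2-/- (3.45% to 10.2%) and from 0 to 1 in CONV-Ern2-/- (1.91% to 7.20%) against GF-Ern2-/-, from 0 to 13 in CONV-Ern2-/- against COLONIZED-Ern2-/- (3.34% to 18.5%), and from 0 to 5 in the CONV interaction (0.0221% to 2.24%), which gave 6 (5.01%) without CONV-WT replicate 3 and GF-Ern2-/- replicate 2.

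Same-numbered libraries were not treated as pairs in the main fits. All 3 of their correlations passed 0.1 in 0 of 9 comparisons (range −0.28 to 0.63). All 3 samples still correlated best with their own number in COLONIZED-Ern2-/- against GF-Ern2-/- (0.49, 0.09 and 0.24). The same was found in CONV-WT against COLONIZED-WT (0.19, 0.09 and 0.13). These correlations cannot decide whether the numbers mark pairs, and the labels do not say. With the replicate number as a block there were 14 calls in COLONIZED-WT (16.4%) and 3 in CONV-WT (9.17%) against GF-WT, 3 in COLONIZED-Ern2-/- against GF-Ern2-/- (7.25%), 5 in CONV-Ern2-/- against COLONIZED-Ern2-/- (7.40%), and 2 (3.41%) and 1 (1.58%) between the genotype labels in CONV and COLONIZED mice. TMM moved the median of all genes by at most 0.02, and Copz2, with as few as 23 raw counts, was the gene most limited by depth.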

Other observations

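Golgb1, which encodes the Golgi tether giantin, had 1633 normalized counts in GF-Ern2-/- replicate 2 and 3817 to 5758 in the other 17 libraries. Tmed7 had 4049 normalized counts in COLONIZED-Ern2-/- replicate 2. In GF-Ern2-/- replicate 2, 35 of the 44 genes were higher than the mean of the other GF-Ern2-/- libraries, with a median log2 difference of 0.21. Of 10015 genes with a mean of at least 100 normalized counts, 5172 were higher, with a median of 0.02.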
